A study of Mus musculus with 6 samples.

Results

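The 10 genes described here make up the core of the liver X receptor (LXR) programme of cholesterol export, and all 10 were found by name in the deposited table of 57180 genes. They are the receptors Nr1h3 (LXR alpha) and Nr1h2 (LXR beta), the efflux transporters Abca1 and Abcg1, the secreted lipid carriers Apoe, Apoc2 and Pltp, the LXR target enzymes Mylip and Lpcat3, and Ch25h, which makes an oxysterol ligand. RNA was sequenced from macrophages grown from the marrow of wild-type mice aged 6 to 8 weeks, using M-CSF at 20 ng/mL for 7 days. The cells of 3 libraries, called IL-4+CGRP, then received CGRP, a neuropeptide of sensory nerves, together with IL-4 at 20 ng/mL. In the other 3, called IL-4, they received IL-4 at 20 ng/mL alone. Both treatments lasted 24 h. Cells without IL-4 were not analysed here, so values compare CGRP added to IL-4 with IL-4. The labels do not say whether replicate libraries are separate cultures or animals, and all p-values here measure library-to-library spread that may be technical.

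LXRs are nuclear receptors that sit on DNA as heterodimers with the retinoid X receptors and switch genes on when oxysterols or the cholesterol precursor desmosterol bind them. In macrophages they raise the transporters that hand cholesterol to lipoproteins outside the cell and the carrier proteins that take it away, and they raise MYLIP, a ubiquitin ligase that lowers lipoprotein uptake. Macrophages that take up dying cells or lipoproteins depend on this route to avoid becoming foam cells. The DNA element that LXRs recognise is the DR4, a direct repeat of a hexamer with a short spacer, and the human ABCA1 promoter is a classical example.

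Libraries held 20088859 to 24060440 counts each. On the first principal component (37.6% of variance) IL-4+CGRP replicate 2 stood apart from its group: it lay at -0.17, its fellow libraries at 21.98 and 27.05, and the IL-4 libraries between -25.97 and -11.22. Member results and counts of called genes that move without it are given further below, after the values with all libraries. All 10 macrophage markers listed, among them Csf1r, Adgre1 (F4/80), Cd68 and Lyz2, were present in every library, and their summed level was 16634 to 16852 CPM (counts per 1000000 counts of the library, after TMM scaling) in IL-4+CGRP and 16024 to 16255 CPM in IL-4 (2 of 10 tested, Itgam and Mrc1, were higher). Markers of other cells were lower, but several lists did not overlap between the groups. Osteoclast markers summed to 715 to 742 CPM in IL-4+CGRP and 818 to 867 CPM in IL-4 (4 of 6 tested lower), and endothelial markers to 179 to 200 CPM in IL-4+CGRP and 138 to 157 CPM in IL-4 (2 of 4 tested higher). Erythroid and megakaryocyte markers summed to 60.6 to 82.9 CPM in IL-4+CGRP and 42.8 to 44.1 CPM in IL-4, and dendritic cell markers to 31.0 to 34.4 CPM in IL-4+CGRP and 25.5 to 27.9 CPM in IL-4 (1 higher and 1 lower of 6 tested). Stromal markers summed to 49.8 to 55.5 CPM in IL-4+CGRP and 44.2 to 48.0 CPM in IL-4, and mast cell and basophil markers to 10.7 to 12.9 CPM in IL-4+CGRP and 13.2 to 15.2 CPM in IL-4. Ranges of neutrophil, B cell, T and NK cell and proliferation markers overlapped. Ly6g (neutrophils), Hbb-bs and Hbb-bt (red cells) and Calcr (osteoclasts) were at 0 counts in all 6 libraries. In bulk RNA, fewer cells of a type and less RNA per cell cannot be told apart, and the part of these differences in the results was not tested.

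Promoter windows of the members were searched for DNA elements of LXR and of the cAMP pathway, on which the CGRP receptor signals. They are RefSeq windows of 300 bases on mouse build GRCm38.p6, running from 250 bases before to 50 bases after the annotated gene start. Each is written 5′ to 3′ in the gene's own direction. Of the 10 members 9 have at least 1 entry, and Abcg1 has none. Sequence outside these windows was not searched, so a member without a match may carry an element elsewhere. The Abca1 window is shown for its DR4-like element, the Ch25h window for its cAMP response element and the Nr1h3 window because Nr1h3 is the member that changed. Capitals mark the element, and the Nr1h3 window has none. They lie at chr4:53159846-53160145 (Abca1), chr19:34475099-34475398 (Ch25h) and chr2:91194986-91195285 (Nr1h3, one of its overlapping entries), all on the minus strand.
Abca1: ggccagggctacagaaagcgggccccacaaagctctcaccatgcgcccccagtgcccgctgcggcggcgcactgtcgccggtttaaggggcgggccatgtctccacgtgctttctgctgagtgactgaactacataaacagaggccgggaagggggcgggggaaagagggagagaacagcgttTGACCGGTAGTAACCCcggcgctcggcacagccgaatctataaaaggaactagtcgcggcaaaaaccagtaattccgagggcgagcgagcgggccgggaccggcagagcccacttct
Ch25h: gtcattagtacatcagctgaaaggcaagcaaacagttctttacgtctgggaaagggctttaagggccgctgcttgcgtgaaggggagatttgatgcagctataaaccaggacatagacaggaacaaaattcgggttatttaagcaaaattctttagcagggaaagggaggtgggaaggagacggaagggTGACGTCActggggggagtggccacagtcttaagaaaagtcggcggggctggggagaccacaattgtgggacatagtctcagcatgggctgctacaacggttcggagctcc
Nr1h3: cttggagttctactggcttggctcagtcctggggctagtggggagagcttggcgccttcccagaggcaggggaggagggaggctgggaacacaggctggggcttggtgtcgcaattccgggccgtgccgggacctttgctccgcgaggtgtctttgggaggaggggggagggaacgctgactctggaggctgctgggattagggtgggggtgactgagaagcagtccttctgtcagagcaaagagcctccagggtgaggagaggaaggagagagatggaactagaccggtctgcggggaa

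Searched on both strands for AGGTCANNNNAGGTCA with at most 1 mismatch in each half-site, 0 of the 9 members had a match, against 1.75% of 32851 mouse promoter entries. With 3 mismatches allowed over the 12 half-site letters, a setting chosen after that search, Abca1 matched, starting 67 bases before the gene start, as did 21.9% of all entries. The cAMP response element TGACGTCA stood in the Ch25h window, starting 61 bases before the gene start, and in 1.79% of all entries. Its half-site TGACG, which also lies within the full element on both strands, was found in Nr1h2, Apoc2 and Ch25h and in 20.8% of all entries. These matches describe letters and say nothing of binding.

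Across the transcriptome, 511 of 13260 tested genes (3.85%) differed between IL-4+CGRP and IL-4 at an adjusted p under 0.05 (edgeR quasi-likelihood test, Benjamini-Hochberg), and 1.54% were lower. All 10 members were expressed highly enough to be tested. Nr1h3 fell, and the other 9 did not pass. Thus 1 of 10 members was lower and 0 were higher by edgeR. At an unadjusted p under 0.05 there were 2 higher and 3 lower, against 15.8% of all tested genes in either direction. DESeq2 called 1 member higher and 1 lower, against 460 of all 13260 genes. With limma-voom 0 members were higher and 1 lower, against 494 of all 13260 genes. The median log2 fold change was 0.0182 over the members and -0.00423 over all tested genes, and the median absolute log2 fold change was 0.143 over the members and 0.109 over all tested genes.

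**Figure D1:**
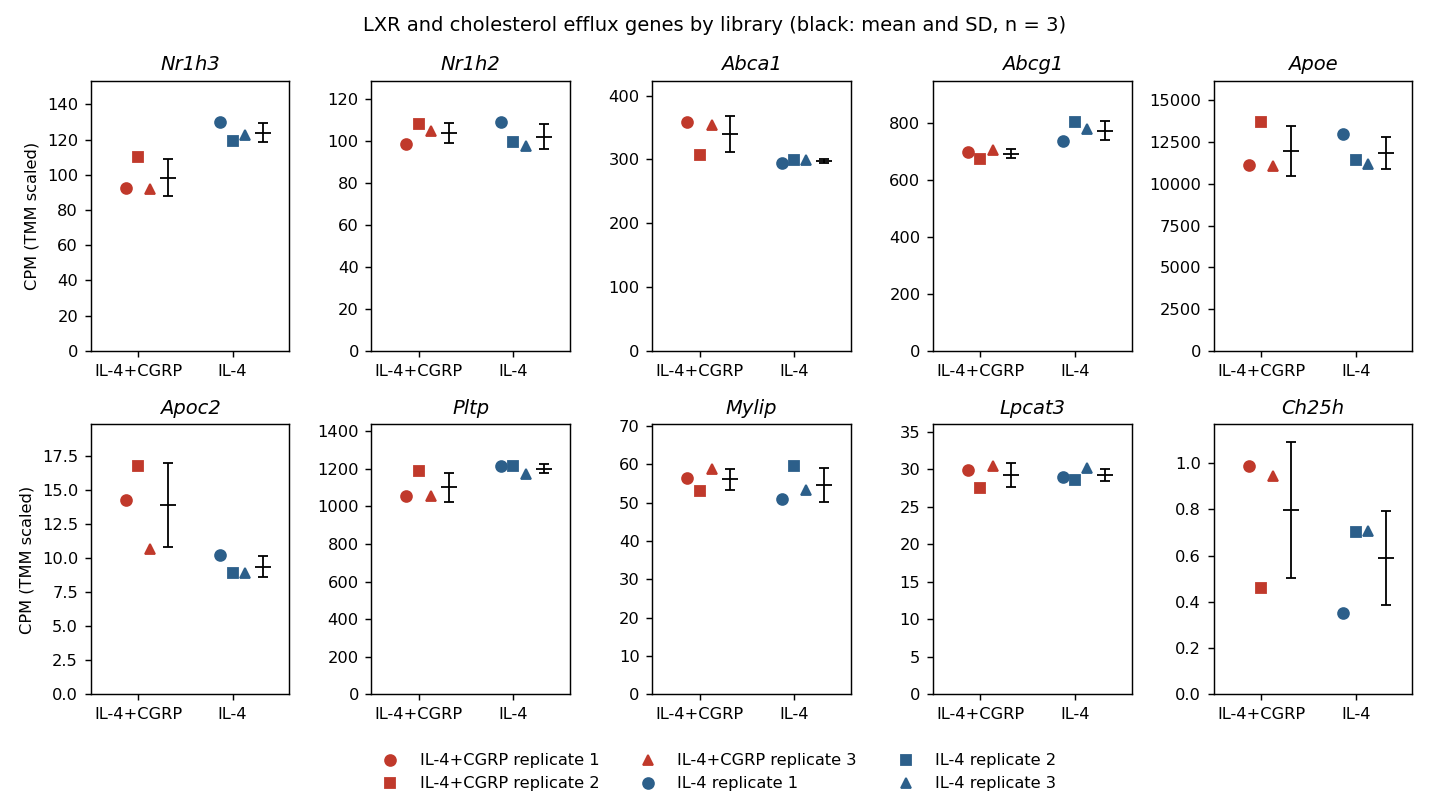
CPM of each member in each library (y axes from 0, IL-4+CGRP in red, IL-4 in blue, marker shape by replicate number), with the group mean and SD (n = 3) in black. Nr1h3 and Abcg1 lie lower in every IL-4+CGRP library than in any IL-4 library, Abca1 and Apoc2 lie higher, and the other 6 genes overlap. Over all tested genes, 21% had groups that did not overlap.

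Of the receptors, Nr1h3 (ENSMUSG00000002108) encodes LXR alpha, the form enriched in liver, fat and macrophages and itself a target of LXR in human macrophages. It measured 92.6, 110.3 and 92.0 CPM in IL-4+CGRP replicates 1 to 3, against 129.8, 119 and 122 CPM in IL-4 replicates 1 to 3. The groups did not overlap, and IL-4+CGRP replicate 2 lay nearest to the IL-4 libraries. The means were 98.3 ± 10.4 CPM in IL-4+CGRP and 124 ± 5.43 CPM in IL-4 (SD, n = 3 each), so Nr1h3 fell 1.26-fold (log2 fold change -0.33 ± 0.07, SE; edgeR adjusted p = 0.028). The call ended on leaving out IL-4+CGRP replicate 1 or 3 or any IL-4 library (edgeR adjusted p = 0.10 to 0.15). It also ended with a dispersion fit that was not robust (edgeR adjusted p = 0.054) and with replicate number as a block (edgeR adjusted p = 0.10). The log2 fold change lay between -0.42 and -0.29 over all alternatives.

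Nr1h2 (ENSMUSG00000060601) encodes LXR beta, which is expressed in most tissues. It measured 98.5, 108 and 104 CPM in IL-4+CGRP, against 108.7, 99.3 and 97.6 CPM in IL-4. The groups overlapped fully, and the log2 fold change was 0.02 with a 95% confidence interval of -0.11 to 0.16 (edgeR adjusted p = 0.88). Counts of Nr1h3 divided by those of Nr1h2 in the same library, a ratio that library scaling cannot change, were 0.94, 1.02 and 0.88 in IL-4+CGRP, against 1.19, 1.20 and 1.25 in IL-4. The ratios did not overlap, with a log2 difference of -0.36 and a two-sided exact permutation p = 0.1, the smallest that 3 libraries against 3 can give, and 0.1 after adjustment over the 3 ratios computed (n = 3 each). These ratios were chosen with the genes' values known.

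The transporters lay on opposite sides. Abca1 (ENSMUSG00000015243) moves cholesterol and phospholipid onto lipid-poor apolipoprotein A-I and is the most used readout of LXR activity in macrophages. It measured 358, 307 and 353 CPM in IL-4+CGRP, against 294, 299 and 299 CPM in IL-4. Every IL-4+CGRP library was higher, although replicate 2 exceeded the highest IL-4 library only slightly. The log2 fold change was 0.19 with a 95% confidence interval of 0.06 to 0.32, and Abca1 did not pass (edgeR adjusted p = 0.12). Its annotated length of 10262 bases is the longest of the members, and with the length trend of each library removed the log2 fold change was 0.11 (edgeR adjusted p = 0.13).

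Abcg1 (ENSMUSG00000024030) passes cholesterol to mature HDL particles. It measured 700.1, 676 and 706 CPM in IL-4+CGRP, against 739, 804 and 782 CPM in IL-4. Every IL-4+CGRP library was lower, replicate 2 the lowest of them, so here the library that stands apart did not resemble the IL-4 group. The log2 fold change was -0.16 with a 95% confidence interval of -0.26 to -0.06, and it did not pass (edgeR adjusted p = 0.084). With the length trend removed it was -0.21 and passed (edgeR adjusted p = 0.0023).

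The count ratio of Abca1 to Abcg1 within a library was 0.512, 0.454 and 0.501 in IL-4+CGRP, against 0.398, 0.372 and 0.382 in IL-4. All 3 IL-4+CGRP libraries lay above all IL-4 libraries. This had to follow, because every IL-4+CGRP library was higher in Abca1 and lower in Abcg1 than every IL-4 library. The log2 difference was 0.35 and stayed between 0.31 and 0.40 on leaving out any library. The two-sided exact permutation p = 0.1 (n = 3 each), again the smallest that this design allows, was fixed by the same separation and adds no support.

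**Figure D2:**
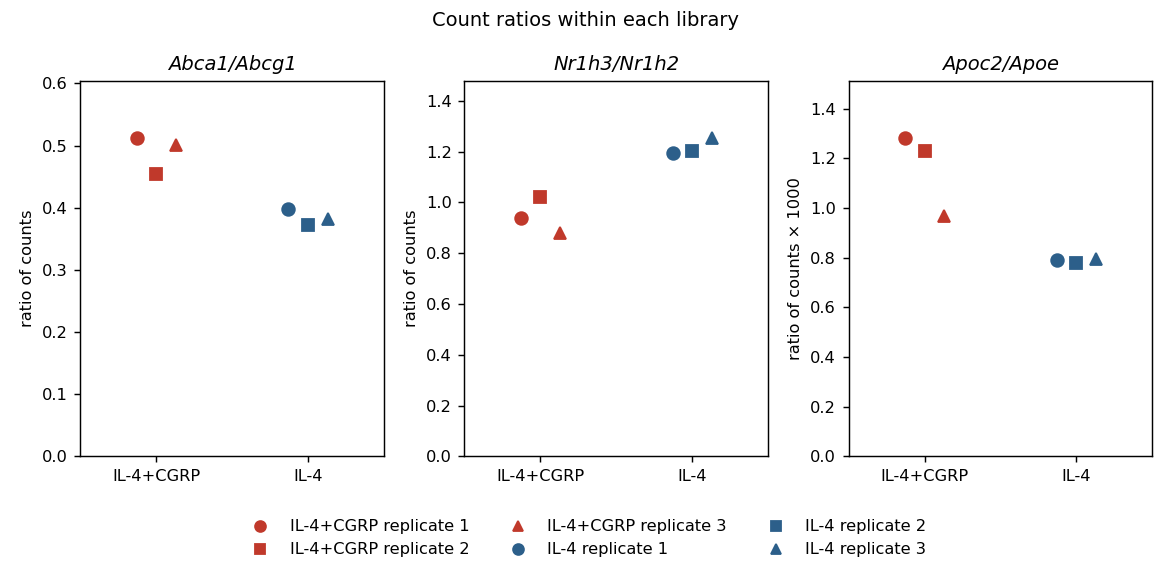
Count ratios within each library for Abca1/Abcg1, Nr1h3/Nr1h2 and Apoc2/Apoe (the last multiplied by 1000), with IL-4+CGRP in red on the left and IL-4 in blue, y axes from 0, n = 3 libraries each. The groups do not overlap in any of the 3 ratios, which for Abca1/Abcg1 follows from the separate values of these genes. Nr1h3/Nr1h2 is lower in IL-4+CGRP, at 0.88 to 1.02 against 1.19 to 1.25, and the other ratios are higher.

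Apoe (ENSMUSG00000002985), the apolipoprotein through which macrophages export lipid and an LXR target, was the most abundant member by far. It measured 11133, 13694 and 11045 CPM in IL-4+CGRP, against 12964, 11416 and 11208 CPM in IL-4. The highest value in each group was a single library, IL-4+CGRP replicate 2 and IL-4 replicate 1, and the other 4 lay close together. The log2 fold change was 0.01 with a 95% confidence interval of -0.27 to 0.29 (edgeR adjusted p = 0.97).

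Apoc2 (ENSMUSG00000002992), the activator of lipoprotein lipase, lies in the same gene cluster as Apoe on mouse chromosome 7. It measured 14.3, 16.8 and 10.7 CPM in IL-4+CGRP, against 10.3, 8.91 and 8.92 CPM in IL-4. The groups did not overlap, but IL-4+CGRP replicate 3 exceeded IL-4 replicate 1 only slightly. This was the largest log2 fold change among the members, 0.57 with a 95% confidence interval of 0.23 to 0.91, and it did not pass by edgeR (adjusted p = 0.077). Apoc2 passed in 6 of 17 alternatives, among them DESeq2 (adjusted p = 0.024) and without IL-4+CGRP replicate 3 (0.73, edgeR adjusted p = 0.0056). With the length trend removed the log2 fold change was 0.61 and passed (edgeR adjusted p = 0.0033). With no filter on low counts it passed as well (edgeR adjusted p = 8.7e-05). On the same strand lies Apoc2l, a gene whose transcript is identical to that of Apoc2 over 647 bases. It was given 8.98, 1.58 and 1.85 counts in IL-4+CGRP and 6.32, 0 and 0 in IL-4, so the split of reads between them is uncertain, though these counts are small beside the 190 to 366 of Apoc2.

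The ratio of Apoc2 to Apoe counts was 0.00128, 0.00123 and 0.000966 in IL-4+CGRP, against 0.00079, 0.00078 and 0.000796 in IL-4. The 3 IL-4 libraries were nearly equal and all IL-4+CGRP libraries were higher, with a log2 difference of 0.54 and a two-sided exact permutation p = 0.1 (n = 3 each).

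Pltp (ENSMUSG00000017754), which transfers phospholipid between lipoproteins and enlarges HDL, was the next most abundant member. It measured 1057, 1189 and 1056 CPM in IL-4+CGRP, against 1217, 1213 and 1174 CPM in IL-4. Replicates 1 and 3 of IL-4+CGRP were lower than every IL-4 library, and replicate 2 lay inside the IL-4 range. The log2 fold change was -0.13 with a 95% confidence interval of -0.24 to -0.02 (edgeR adjusted p = 0.24). Pltp overlaps Ctsa (cathepsin A) on the opposite strand in GENCODE release M21, and all 6 Pltp values were not whole numbers, so the division of reads between these genes is uncertain.

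The remaining target enzymes varied little. Mylip (ENSMUSG00000038175), the ubiquitin ligase that lowers lipoprotein uptake, measured 56.4, 53.1 and 58.6 CPM in IL-4+CGRP, against 51.0, 59.6 and 53.3 CPM in IL-4. The groups overlapped, with a log2 fold change of 0.04 and a 95% confidence interval of -0.12 to 0.19 (edgeR adjusted p = 0.84). Lpcat3 (ENSMUSG00000004270), which loads polyunsaturated fatty acids onto phospholipids, measured 29.8, 27.5 and 30.5 CPM in IL-4+CGRP, against 29.0, 28.6 and 30.2 CPM in IL-4. Its range in IL-4+CGRP enclosed that in IL-4, and the log2 fold change was 0.00 with a 95% confidence interval of -0.15 to 0.16 (edgeR adjusted p = 0.99). Lpcat3 shares exon sequence with Emg1 on the opposite strand, so its count carries the same uncertainty as that of Pltp.

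Ch25h (ENSMUSG00000050370) adds the hydroxyl group that makes 25-hydroxycholesterol, an LXR ligand and an inhibitor of SREBP processing, and is induced by interferons. It was close to silent, with 24, 10 and 21 counts in IL-4+CGRP against 7, 15 and 17 counts in IL-4. The groups overlapped, and the 95% confidence interval of the log2 fold change ran from -0.45 to 1.3 (edgeR adjusted p = 0.66), so even a sizeable change was not detectable at this depth. It shares 159 bases with Gm26902 on the opposite strand, which had at most 1 count. Its log2 fold change moved between 0.18 and 0.70 over the alternatives.

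**Figure D3:**
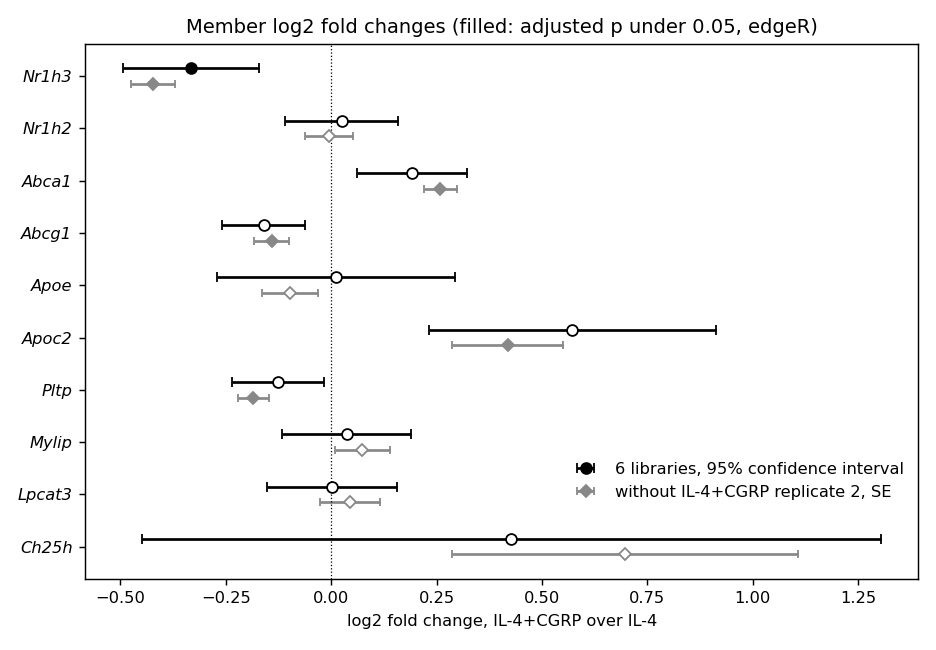
Log2 fold change of IL-4+CGRP over IL-4 for each member (x axis), in black with its 95% confidence interval from all 6 libraries and in grey with its SE without IL-4+CGRP replicate 2; filled symbols passed the edgeR test. With all libraries Nr1h3 passed. Without replicate 2, Nr1h3, Abcg1 and Pltp passed as lower and Abca1 and Apoc2 as higher. Replicate 2 was singled out for its place on the first principal component, so the grey values are a description.

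Without IL-4+CGRP replicate 2, 2 members passed as higher and 3 as lower, in a fit where 13.8% of all 13492 tested genes passed. Abca1 then had a log2 fold change of 0.26 ± 0.04 (SE; edgeR adjusted p = 2.8e-04) and Apoc2 of 0.42 ± 0.13 (SE; edgeR adjusted p = 0.042). Lower were Nr1h3 (-0.42 ± 0.05, SE; edgeR adjusted p = 3.7e-05), Pltp (-0.18 ± 0.04, SE; edgeR adjusted p = 0.0023) and Abcg1 (-0.14 ± 0.04, SE; edgeR adjusted p = 0.030). For Abca1, Nr1h3 and Pltp the omitted library was the one nearest to the IL-4 group, whereas for Abcg1 and Apoc2 it was the one farthest from it. This fit is singled out because replicate 2 lay nearest its group to the IL-4 libraries on the first principal component. Its adjusted p-values are therefore a description and add no support. Leaving out any other single library gave 0 or 1 called members. With all 6 libraries, 4 of 10 members had groups that did not overlap, 2 higher and 2 lower, against 21% of all tested genes.

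Divided by annotated length, the members spanned more than 4 orders of magnitude in both groups. Apoe stood at 9793 ± 1233 CPM per kilobase in IL-4+CGRP and 9715 ± 786 in IL-4 (SD, n = 3 each), the highest of all tested genes. Pltp followed at 494 ± 34.2 and 539.7 ± 10.6 CPM per kilobase, and Abcg1 at 119 ± 2.68 and 133 ± 5.72, with IL-4+CGRP given first in each pair. Nr1h3 stood at 50.3 ± 5.32 CPM per kilobase in IL-4+CGRP and 63.3 ± 2.78 in IL-4, and Nr1h2 at 53.3 ± 2.48 in IL-4+CGRP and 52.4 ± 3.10 in IL-4. By this measure, which rests on the deposited length of each gene, Nr1h3 stood above Nr1h2 in IL-4. In IL-4+CGRP the difference between the receptors was smaller than the SD of Nr1h3.

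Abca1, at 33.1 ± 2.75 CPM per kilobase in IL-4+CGRP and 29.0 ± 0.266 in IL-4, was below Abcg1 in both. In IL-4+CGRP Apoc2 came next at 22.0 ± 4.88 CPM per kilobase and then Mylip at 18.3 ± 0.914, a gap smaller than the SD of Apoc2. In IL-4 their order was the reverse, with Apoc2 at 14.8 ± 1.24 and Mylip at 17.8 ± 1.47 CPM per kilobase. Lpcat3 stood at 12.8 CPM per kilobase in each group, and Ch25h at 0.575 ± 0.212 in IL-4+CGRP and 0.424 ± 0.147 in IL-4.

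**Figure D4:**
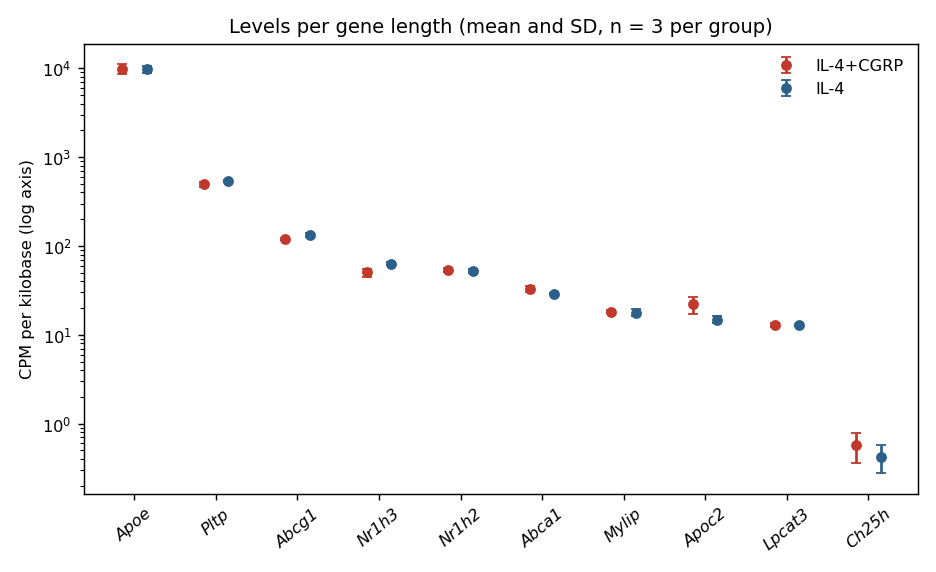
Level of each member per annotated gene length (CPM per kilobase, log axis; mean and SD of n = 3 libraries), with IL-4+CGRP in red left of IL-4 in blue, ordered by the IL-4 level. Apoe stands at 9793 CPM per kilobase in IL-4+CGRP and 9715 in IL-4, Ch25h is below 1, and Nr1h3 does not exceed Nr1h2 in IL-4+CGRP (50.3 against 53.3) but does in IL-4 (63.3 against 52.4).

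The genes whose log2 CPM followed Nr1h3 most closely over the 6 libraries, among 10345 genes compared, were Capg (an actin filament capping protein, r = 0.9991), Akr1b1 (aldose reductase, r = 0.996) and Pitpna (a phosphatidylinositol transfer protein, r = 0.9939). These correlations over 6 libraries that share the split into 2 groups are a description. Capg measured 936 ± 68.2 CPM in IL-4+CGRP and 1088 ± 31.2 CPM in IL-4 (SD, n = 3 each).

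Around the members, 105 tested genes of sterol handling and of the interferon response were read in 9 lists, and 4 of them were higher and 8 lower. That is 11.4% called, against 3.85% of all tested genes, the share to set beside each edgeR count with all 6 libraries below. For counts at an unadjusted p under 0.05 the matching share is 15.8% of all tested genes. For edgeR counts without IL-4+CGRP replicate 2 it is 13.8%. Because the lists were chosen with earlier results of these data known, their counts are a description and no test. Among 15 tested partners and coregulators of LXR, 0 passed by edgeR, DESeq2 or limma-voom, and at an unadjusted p under 0.05 there were 3 higher and 0 lower, with a median log2 fold change of 0.0781. Rxra, the main partner receptor, measured 163, 169 and 169 CPM in IL-4+CGRP, against 151, 150.2 and 149 CPM in IL-4. Every IL-4+CGRP library was higher, with a log2 fold change of 0.16 ± 0.05 (SE; edgeR adjusted p = 0.12). Without IL-4+CGRP replicate 2, 5 of the partners and coregulators passed as higher, Rxra among them (edgeR adjusted p = 0.043).

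Other known LXR targets moved both ways, with 1 of 15 tested higher, 3 lower and a median log2 fold change of 0.0419. DESeq2 and limma-voom each also called 1 higher and 3 lower. At an unadjusted p under 0.05 there were 2 higher and 5 lower. Lpl (lipoprotein lipase, the enzyme that Apoc2 activates) measured 848, 844 and 887 CPM in IL-4+CGRP, against 1693, 1448 and 1669 CPM in IL-4, and fell 1.87-fold (edgeR adjusted p = 7.3e-06). Cd5l, a secreted scavenger protein, fell 1.63-fold (edgeR adjusted p = 1.2e-04), and Smpdl3a, a secreted phosphodiesterase, fell 1.15-fold (edgeR adjusted p = 0.030). Arl4c, a small GTPase linked to cholesterol transport to the plasma membrane, rose 1.2-fold, with 382, 425 and 398 CPM in IL-4+CGRP against 353, 319 and 334 CPM in IL-4 (edgeR adjusted p = 0.022). The Lpl and Cd5l calls held under all 17 alternatives. The Smpdl3a call ended with library totals alone and without any single library other than IL-4+CGRP replicate 2, and the Arl4c call without IL-4+CGRP replicate 3 or IL-4 replicate 2 or 3.

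In other steps of cholesterol transport 1 of 14 tested genes rose and 0 fell, with a median log2 fold change of -0.0429, also 1 and 0 by DESeq2 and by limma-voom, with 2 higher and 1 lower at an unadjusted p under 0.05. That gene, Gramd1b (Aster-B), carries cholesterol from the plasma membrane to the endoplasmic reticulum. It measured 159, 145 and 165 CPM in IL-4+CGRP, against 110.1, 117 and 119 CPM in IL-4, and rose 1.35-fold (edgeR adjusted p = 0.0020). Lipa, the lysosomal acid lipase that frees cholesterol from its esters, was the 1 of 7 storage and hydrolysis genes that fell, by 1.34-fold. In that list 0 rose by edgeR, DESeq2 or limma-voom, and 1 was higher and 2 lower at an unadjusted p under 0.05 (list median -0.0303). The Gramd1b and Lipa calls held under all 17 alternatives. Without IL-4+CGRP replicate 2, the transport list had 1 higher and 2 lower and the storage and hydrolysis list 0 higher and 2 lower. Without IL-4+CGRP replicate 3, the transport list had 1 lower.

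Among PPAR and retinoid receptors, of which PPAR gamma is known to induce LXR alpha in macrophages, 2 of 4 tested rose and 1 fell (list median 0.13). Rara (retinoic acid receptor alpha) rose 1.36-fold with 55.0, 53.7 and 58.2 CPM in IL-4+CGRP against 37.7, 40.3 and 44.6 CPM in IL-4. Ppard rose 1.31-fold with 40.5, 35.6 and 43.5 CPM in IL-4+CGRP against 29.8, 30.6 and 31.0 CPM in IL-4, and Pparg fell 1.23-fold with 66.5, 61.2 and 61.1 CPM in IL-4+CGRP against 75.8, 81.5 and 75.4 CPM in IL-4. Their edgeR adjusted p-values were 0.0044, 0.017 and 0.014 in that order. The Rara call held under all 17 alternatives, whereas the Ppard call ended without any single library other than IL-4+CGRP replicate 2, and the Pparg call without IL-4+CGRP replicate 3 or any IL-4 library.

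Cholesterol synthesis, which SREBP2 drives when sterols are scarce, had 0 of 24 tested genes past the edgeR, DESeq2 or limma-voom threshold and a median log2 fold change of 0.0467, with 1 higher and 0 lower at an unadjusted p under 0.05. Srebf2 itself measured 125, 116 and 127 CPM in IL-4+CGRP, against 104, 106 and 110.3 CPM in IL-4 (edgeR adjusted p = 0.082), and without IL-4+CGRP replicate 2 it passed as higher (edgeR adjusted p = 0.0032). Of 4 tested genes of oxysterol synthesis, breakdown and sensing 0 passed by those tools and 0 had an unadjusted p under 0.05 (list median 0.122). The one with the smallest p, Cyp27a1, the sterol 27-hydroxylase, averaged 36.9 ± 3.92 CPM in IL-4+CGRP and 33.5 ± 1.83 CPM in IL-4 (SD, n = 3 each; edgeR adjusted p = 0.48). Without IL-4+CGRP replicate 2 its log2 fold change was 0.22 and passed (edgeR adjusted p = 0.038), against 0.14 with all libraries. Of 5 tested relatives of Lpcat3, 0 passed by those tools and 1 was higher at an unadjusted p under 0.05 (list median 0.00602). That was Lpcat2, which makes the lipid mediator PAF, at 41.3 ± 0.863 CPM in IL-4+CGRP and 37.3 ± 2.64 CPM in IL-4 (SD, n = 3 each; edgeR adjusted p = 0.31).

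Of 17 interferon response genes, the programme that induces Ch25h, 3 fell and 0 rose by edgeR, with 2 higher and 3 lower at an unadjusted p under 0.05, DESeq2 calling 0 and 1, limma-voom 0 and 3, and a list median of -0.0279. Ifit3 fell 1.17-fold, Ifit2 1.14-fold and Rsad2 1.13-fold, with edgeR adjusted p-values of 0.018, 0.019 and 0.047. All 3 calls ended without any single library other than IL-4+CGRP replicate 2, and those of Ifit2 and Rsad2 also with library totals alone and under DESeq2. The Rsad2 call further ended with upper quartile factors (edgeR adjusted p = 0.063) and with a dispersion fit that was not robust (edgeR adjusted p = 0.066). Without IL-4+CGRP replicate 2, 3 of the interferon genes passed as higher and 5 as lower.

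**Figure D5:**
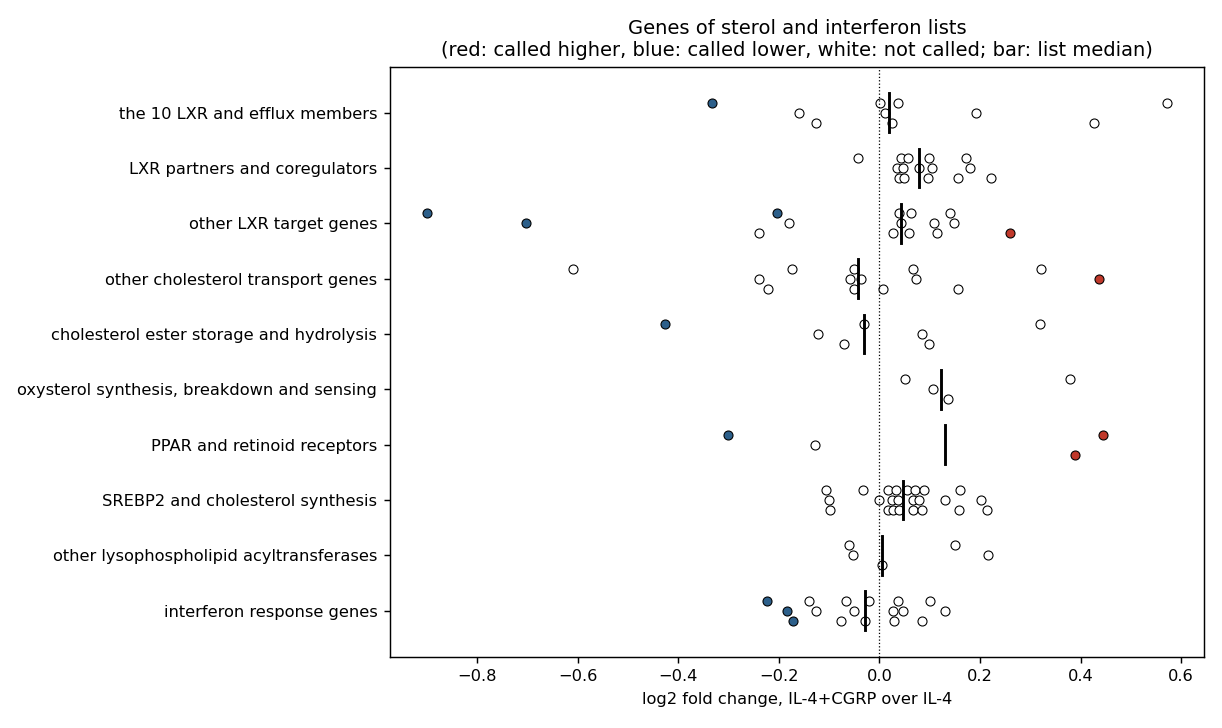
Log2 fold change of IL-4+CGRP over IL-4 (x axis) for the 10 members and the tested genes of 9 related lists, 1 point per gene, red for called higher, blue for called lower and white for not called, with a bar at each list's median. Lpl lies farthest to the left at -0.90, and the member farthest to the right, Apoc2 at 0.57, is not called.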

How the data were processed

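RNA was sequenced from 6 libraries of mouse bone marrow-derived macrophages. The authors deposited expected counts (estimated counts) per gene that were not normalized; up to 26.6% of a library's nonzero entries carried decimals (tolerance 1e-06), and all were rounded before testing. Per the submitters' processing notes, the authors used fastp, HISAT2 and StringTie with build GRCm39; the sources used here give no versions, annotation, counting step or strand setting. The authors' group means equalled the means of the library columns, and gene lengths are those the authors deposited. Columns left unassigned numbered 0.

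Genes were filtered with filterByExpr, which kept 13260 genes with 99.91% of counts, scaled with TMM and tested across all genes with edgeR 4.0.16 (quasi-likelihood, robust, two-sided) in R 4.3.3, with Benjamini-Hochberg adjustment and a threshold of 0.05. SE was taken as the size of the log2 fold change over the root of F. Alternatives were DESeq2 1.42.0, limma-voom (limma 3.58.1), other scalings and filters (a mean count of at least 50, or none), a fit that was not robust, a replicate block and leaving out each library. Removal of the length trend, and of IL-4+CGRP replicate 2 with IL-4 replicate 1, was added after seeing the data. A single simulation on 13260 genes had 48 to 50 changed genes per fold size. It recovered 32% of genes changed 1.3-fold, 60.4% changed 1.5-fold and 79.2% changed 2-fold, and called 0.124% of unchanged genes. Its counts were drawn independently for each gene, without differences shared across genes such as those that set IL-4+CGRP replicate 2 apart. These rates may therefore not hold for the data. No pair of replicates agreed within counting noise (within-group chi-square over its degrees of freedom was 3.09 to 22). Overlapping genes came from GENCODE M21 and sequences from RefSeq, both on GRCm38, and no coordinates were carried to GRCm39. Beyond the 9 lists of related genes in the text, 1 further list is not reported here. The members and lists were chosen with earlier results of these data known. Genes named are all 10 members, up to 4 called genes per list or the gene with the smallest p, and the 3 genes most like the called member.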

Additional observations from a re-analysis of the deposited data

How the results depend on the processing

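Of the members' signs, those of Nr1h3, Abca1, Abcg1, Apoc2, Pltp and Ch25h held under every alternative that gave a value (17 each, 16 for Ch25h, which a mean count of at least 50 removed). The small differences of the other 4 changed sign: leaving out single libraries gave log2 fold changes of -0.012 to 0.073 for Nr1h2, -0.097 to 0.079 for Apoe, -0.011 to 0.10 for Mylip and -0.033 to 0.045 for Lpcat3, Apoe was at -0.029 without both IL-4+CGRP replicate 2 and IL-4 replicate 1, and Lpcat3 at -0.0086 with the length trend removed. Called members numbered 4 with no filter (2 higher, 2 lower) and 2 with DESeq2 (1 higher). They numbered 0 with a dispersion fit that was not robust (0 lower) and 0 with the replicate block (0 lower). At an unadjusted p under 0.05 the replicate block gave 5 members, against 1796 of all 13260 tested genes. Called members numbered 3 with the length trend removed (1 higher, 2 lower) and 5 without both named libraries (2 higher, 3 lower). On leaving out single libraries they numbered 0 to 5 (0 to 2 higher, 0 to 3 lower). Called genes numbered 1018 with no filter (584 higher, 434 lower), 262 with the replicate block (176 higher, 86 lower), 916 with the length trend removed (516 lower), 2253 without both libraries (1066 higher, 1187 lower), and 222 to 1865 without single libraries (140 to 915 higher, 80 to 950 lower); the highest counts are without IL-4+CGRP replicate 2. Genes tested numbered 23776 with no filter and 13260 with the replicate block or the length trend removed. They numbered 13370 without both libraries and 13448 to 13576 without single libraries. Called genes of the related lists numbered 5 with the replicate block, 29 without both libraries and 5 to 27 without single libraries. Higher genes made up 60.1% of calls, 71.2% with library totals alone, 43.7% with the length trend removed and 49.1% without IL-4+CGRP replicate 2. Correlations of deviations between libraries of equal replicate number were -0.19, -0.18 and 0.13, and over all pairings across the groups they ran from -0.19 to 0.29. These few values cannot show whether equal numbers pair the libraries, and the labels do not say. The replicate block ended the calls of Nr1h3 (edgeR adjusted p = 0.10), Arl4c (0.12), Smpdl3a (0.14), Pparg (0.066), Ppard (0.054), Ifit3 (0.090), Ifit2 (0.11) and Rsad2 (0.17). The cause of these changes was not tested. Ch25h, at 7 to 24 counts per library, had an SE of 0.40, and in the simulation most changes of 1.3-fold were missed.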
